A study of Mus musculus with 24 samples.

Results

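Drugs, pollutants and other foreign compounds are sensed in the liver by a small set of receptors and cleared by enzymes of the cytochrome P450 class. The genes described here are 3 such receptors, *Nr1i3*, *Nr1i2* and *Ahr*, together with *Por* and *Alas1*, whose products the microsomal drug-metabolising P450 enzymes depend on. They were chosen by gene name, as 5 of the 54733 genes listed for each of 24 mouse liver RNA-seq libraries, and all 5 passed the filter of a mean of at least 1 FPKM that 11244 genes passed. FPKM is the number of sequenced fragments scaled by transcript length and by library depth, so that levels can be set side by side between genes.

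*Nr1i3* encodes CAR and *Nr1i2* encodes PXR, nuclear receptors that pair with RXR and switch on P450, conjugation and transporter genes when drugs or bile acids are present. *Ahr* encodes the aryl hydrocarbon receptor, which answers to dioxins and polycyclic aromatic compounds. *Por* encodes the reductase that hands electrons from NADPH to the P450 enzymes, and *Alas1* encodes the rate-limiting enzyme of haem synthesis in the liver, so that the pair provide the reducing power and the prosthetic group of the whole system. In liver some of these genes are known as outputs of the D-box, through which the circadian clock reaches detoxification. The D-box is a DNA element bound by the PAR bZIP activators DBP, TEF and HLF and by the repressor E4BP4 (gene *Nfil3*).

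The libraries came from livers of male C57BL/6 mice of 2 genotypes, WT and ΔRRE, killed at projected circadian times (CT) 2, 6, 10, 14, 18 and 22 in constant darkness, with 2 libraries for each genotype and time point. ΔRRE mice are homozygous for a germline CRISPR-Cas9 deletion of the RREs upstream of *Bmal1*, the elements on which REV-ERB and ROR act, so every tissue carries it. The mutants come from 1 founder line unless the study states otherwise, the labels name no drug treatment, and age is not in the labels, while the study's methods give a range of weeks for its tissue collections as a whole. Whether the 2 libraries of a group came from separate animals is not spelled out in the labels, and the p-values measure the spread between these libraries.

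The question for these genes is whether their daily rhythm, or their level, differs when *Bmal1* mRNA no longer cycles. The targeted gene bore out the labels. *Bmal1* (listed as *Arntl*) went from a mean of 0.143 FPKM at CT10 to 12.9 FPKM at CT2 in WT, while the means in ΔRRE stayed between 2.30 and 3.61 FPKM. Library totals ran from 554170 to 624746 FPKM, and replicates correlated with an r from 0.955 to 0.974 across genes on the log scale. Summed hepatocyte markers (5 genes) ranged from 33633 to 49332 FPKM in WT and from 32250 to 45426 FPKM in ΔRRE. Those of lymphocytes (4 genes) were at most 1.34 and 1.87 FPKM. Summed erythroid markers (3 genes) had a median of 485 FPKM in WT and 738 FPKM in ΔRRE, and reached 939 and 2765 FPKM. The 2 of them tested differed in level, higher in ΔRRE, and in rhythm at an unadjusted p under 0.05 by limma. Over all genes 8.91% and 2.84% did, and after adjustment 0 of the 2 did. Of the 5 hepatocyte markers 2 differed in rhythm before adjustment, and 0 in level. The part of blood in the results below was not tested. In such whole tissue, fewer cells of a type and less RNA per cell cannot be told apart.

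The members lie on separate chromosomes of the mouse genome (GRCm38) and all are protein-coding. *Nr1i3* is at chr1:171213970-171220701 on the plus strand and *Por* at chr5:135670033-135735326 on the plus strand. *Nr1i2* is at chr16:38248323-38294824, *Ahr* at chr12:35497974-35535038 and *Alas1* at chr9:106233455-106248654, all on the minus strand. *Nr1i3* shares 4691 bases with *Tomm40l* on the opposite strand, a gene at 7.79 FPKM against 83.0 FPKM for *Nr1i3*. The genes that overlap *Ahr*, *Por* and *Alas1*, also on the opposite strand, were at 0.0838 FPKM or less. The libraries kept strand, and whether the authors' FPKM used it is not given in the sources used here.

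Since these genes are discussed as clock outputs, the promoter windows of RefSeq (GRCm38.p6, 250 bases before to 50 bases after each start) were searched for clock elements on both strands. Windows were held for 4 of the 5 members, 2 of them for *Alas1* and none for *Ahr*. The D-box letters TTATGTAA stood in 0.938% of all 32851 windows and TTACGTAA in 0.119%, and neither stood in a window of *Nr1i3*, *Nr1i2*, *Por* or *Alas1*. The same was true of AGGTCA, the core letters of an RRE, present in 16.3% of windows. The E-box CACGTG, the element of BMAL1 and CLOCK, stood in 7.15% of windows and, among the members, in that of *Nr1i3* alone. It is printed here with the E-boxes of *Tef*, a D-box factor with such letters in its windows. These are the clock elements met in the windows of the receptors, of *Dbp* and of *Tef*. The windows of *Hlf* were not searched. The capitals mark the E-box.
Nr1i3, chr1:171213720-171213747, plus strand: aaactgCACGTGaaaaagcttgccatct
Tef, first start, chr15:81802535-81802562, plus strand: tgctgtggctcCACGTGctgcagctggc
Tef, second start, chr15:81811265-81811292, plus strand: acctggcccagCACGTGtctacatcgtt
The E-box of *Nr1i3* began 244 bases before the start of transcription.
The AHR core GCGTG, which 32.4% of windows hold and which does not overlap the E-box letters, stood 3 times in the window of *Por* and at 1 place, covered by both windows, in *Alas1*. The *Por* window belongs to a start inside the annotated gene. For *Por* the stretches below carry the core in capitals, on the plus strand or as its complement CACGC.
Por, chr5:135688932-135688959, plus strand: ccggctgcgagGCGTGccttttccgagg
Por, chr5:135689072-135689099, plus strand: tcaagagcgcgCACGCggcttttgtggg
Por, chr5:135689110-135689137, plus strand: gcggggttggcCACGCctcacccccgca
A match is a description of letters in a short window and says nothing of binding.

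By level the order was *Alas1*, *Por*, *Nr1i3*, *Nr1i2* and *Ahr*, with means over the 24 libraries of 160 FPKM, 124 FPKM, 83.0 FPKM, 26.4 FPKM and 7.76 FPKM. The library ranges of *Alas1*, *Por* and *Nr1i3* overlapped widely. Those of *Nr1i3* and *Nr1i2* did not overlap, since the lowest *Nr1i3* library was at 47.6 FPKM and the highest *Nr1i2* library at 40.8 FPKM. *Ahr*, at most 10.0 FPKM, lay below every library of *Nr1i2*, the lowest of which was at 18.9 FPKM. Among the receptors, then, CAR mRNA was the most abundant in every time point's mean and AHR mRNA the least.

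**Figure D1:**
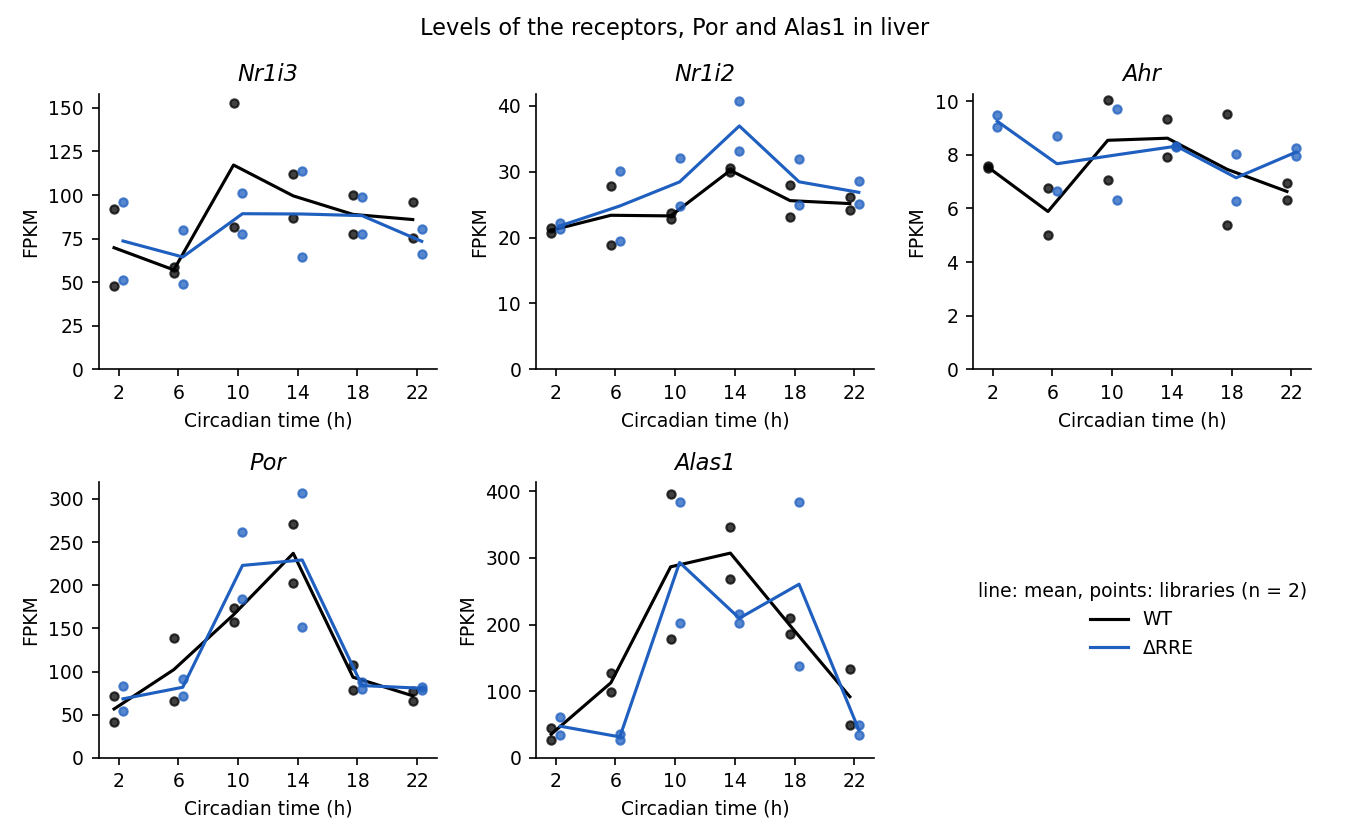
FPKM of each gene (vertical axes, from 0) against circadian time in hours, with 1 point per library and lines through the means of 2 libraries for WT (black) and ΔRRE (blue). *Por* and *Alas1* swing from means of 56.6 and 35.4 FPKM at CT2 to 237 and 307 FPKM at CT14 in WT, while *Ahr* stays between 5.02 and 10.0 FPKM in all 24 libraries.

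*Por*, the electron donor of the P450s, had a strong daily rhythm in both genotypes. In WT its 2 libraries read 72.1 and 41.0 FPKM at CT2, 139 and 65.3 FPKM at CT6, 157 and 174 FPKM at CT10, 203 and 271 FPKM at CT14, 108 and 79.1 FPKM at CT18, and 77.8 and 65.9 FPKM at CT22. In ΔRRE they read 82.9 and 53.8, 91.4 and 72.2, 262 and 184, 306 and 152, 80.1 and 87.4, and 82.1 and 79.1 FPKM at the same times. The 4 highest values of each genotype are those of CT10 and CT14, and nothing at the other times reached them. Over both genotypes the mean was 233 ± 68.9 FPKM (SD, n = 4) at CT14 and 194 ± 46.2 at CT10, which overlapped each other, followed after a gap by CT6 at 92.0 ± 33.2, CT18 at 88.6 ± 13.3, CT22 at 76.2 ± 7.13 and CT2 at 62.5 ± 18.7. The last 4 overlapped from each to the next.

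A wave with a period of 24 h was fitted to log2(FPKM + 0.1), and its amplitude, the distance from mean to peak, is given on that log2 scale. For *Por* the amplitude was 0.97 in WT (95% interval 0.64 to 1.29), with a peak at CT 12.5 (11.3 to 13.8), and 0.91 in ΔRRE (0.55 to 1.26), with a peak at CT 12.2 (10.7 to 13.7). This amounts to a fitted peak 3.82 times the trough in WT and 3.52 times in ΔRRE. The rhythm passed limma's moderated F-test with Benjamini-Hochberg adjustment over all genes in WT (adjusted p = 0.00467) and in ΔRRE (adjusted p = 0.0207). It also passed where 1 wave was fitted to both genotypes (joint fit, amplitude 0.94, adjusted p = 8.13e-06). Without the libraries of CT14 the adjusted p was 0.0507 in WT, and in ΔRRE it was 0.0556 without those of CT2, 0.106 without CT10 and 0.0963 without CT14.

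*Alas1*, which sets the rate of haem synthesis, had the widest swing of the 5 genes. In WT the libraries read 26.2 and 44.5 FPKM at CT2, 98.2 and 127 at CT6, 178 and 395 at CT10, 268 and 347 at CT14, 211 and 186 at CT18, and 49.4 and 134 at CT22. In ΔRRE they read 60.7 and 34.3, 26.8 and 35.9, 203 and 384, 216 and 203, 137 and 384, and 49.7 and 34.3 FPKM. All 12 libraries of CT10, CT14 and CT18 lay above all 12 of CT22, CT2 and CT6. The replicates of some groups stood far apart, as at CT18 in ΔRRE, where the mean was 261 ± 174 FPKM (SD, n = 2).

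The highest mean of *Alas1* was 8.69 times the lowest in WT, between CT14 and CT2, and 9.34 times in ΔRRE, between CT10 and CT6. The fitted amplitude was 1.49 in WT (1.06 to 1.93) and 1.67 in ΔRRE (1.04 to 2.30) on the log2 scale, with peaks at CT 13.4 (12.2 to 14.5) and CT 14.1 (12.7 to 15.5). Both rhythms passed (adjusted p from limma = 0.00226 in WT and 0.0157 in ΔRRE), as did the joint one at an amplitude of 1.58 (adjusted p = 5.14e-06). In the joint fit the peak of *Alas1* came 1.35 h after that of *Por*, with intervals that overlapped (12.8 to 14.7 and 11.4 to 13.3). The means over both genotypes were ordered the other way, highest at CT10 for *Alas1* and at CT14 for *Por*. The order of the 2 peaks was not tested.

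Of the 5 members 2, *Por* and *Alas1*, were called rhythmic in WT, where 10.3% of all genes tested were called. The same 2 were called in ΔRRE, where 4.57% of genes were, and 2.87% of genes were called in both. In the joint fit 3 members were called, against 30.6% of all genes, the addition being *Nr1i2*. By the looser criteria of the study's methods (a p under 0.3, here that of the wave fit, a highest mean over 1.5 times the lowest, and replicate SDs of at most 1.5 times the difference), 3 members were called in WT, *Nr1i3*, *Por* and *Alas1*, against 37.0% of genes. Under the same criteria 3 were called in ΔRRE, *Nr1i2*, *Por* and *Alas1*, against 35.4% of genes.

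**Figure D2:**
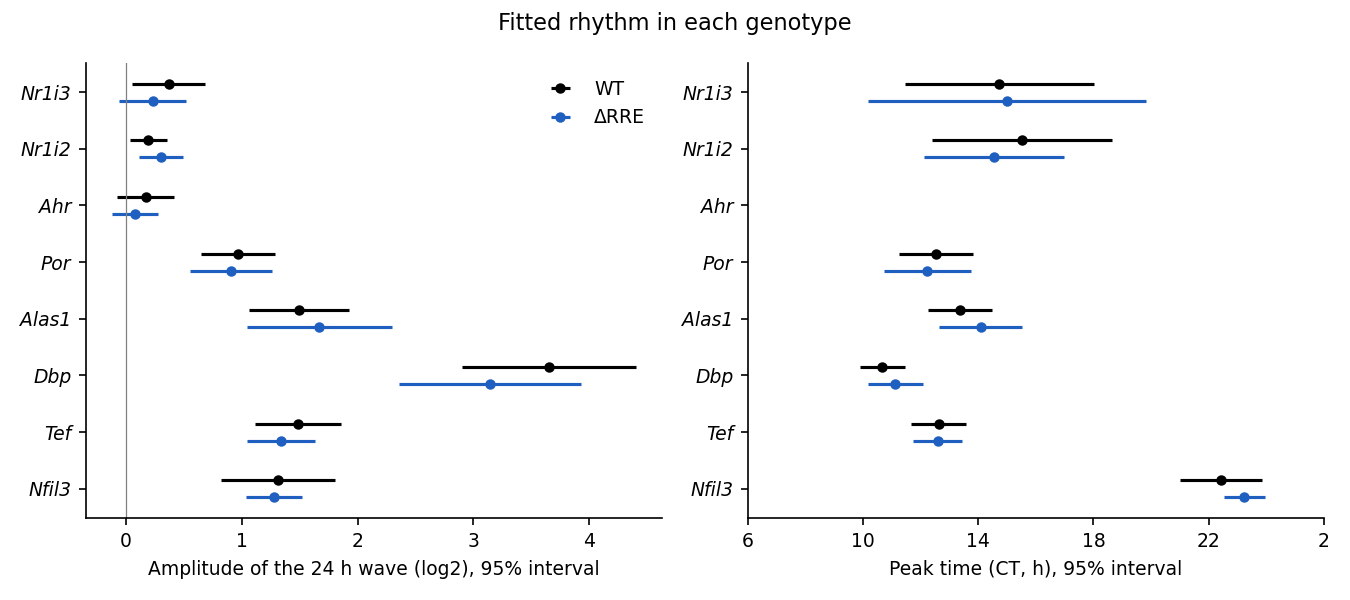
Amplitude of the fitted 24 h wave on the log2 scale (left) and its peak time in CT hours (right) for the 5 genes and for *Dbp*, *Tef* and *Nfil3*, with 95% intervals, in WT (black) and ΔRRE (blue). The intervals of the genotypes overlap for each gene, with *Por* at 0.97 and 0.91 and *Alas1* at 1.49 and 1.67. The peak time of *Ahr* is left out because the interval of its amplitude held 0 in both genotypes.

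*Nr1i2*, the PXR gene, had a shallow rhythm with its high point in the early night. WT libraries read 21.5 and 20.7 FPKM at CT2, 27.9 and 18.9 at CT6, 23.7 and 22.9 at CT10, 29.9 and 30.5 at CT14, 28.1 and 23.2 at CT18, and 26.1 and 24.2 at CT22. ΔRRE libraries read 22.2 and 21.3, 30.1 and 19.5, 32.1 and 24.9, 40.8 and 33.1, 31.9 and 25.0, and 28.6 and 25.1 FPKM. CT14 was highest and CT2 lowest in both genotypes, 1.43-fold apart in WT and 1.70-fold in ΔRRE, and within each genotype the libraries of CT14 lay above all others. With the genotypes pooled (n = 4), each time point in the order of the means overlapped with the next.

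The amplitude of *Nr1i2* was 0.19 in WT (0.04 to 0.35; adjusted p = 0.203) and 0.30 in ΔRRE (0.11 to 0.50; adjusted p = 0.132) on the log2 scale, so neither genotype passed limma's test alone. With both genotypes in 1 wave it was 0.25 (0.13 to 0.36) with a peak at CT 14.9 (13.1 to 16.8), and that passed (adjusted p = 0.0072). The call rested on CT2 and CT14, since the adjusted p was 0.0871 without the libraries of the former and 0.195 without those of the latter.

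*Nr1i3*, the CAR gene, spread widely between replicates. WT libraries read 92.0 and 47.6 FPKM at CT2, 58.9 and 55.2 at CT6, 153 and 81.5 at CT10, 112 and 87.1 at CT14, 99.9 and 77.9 at CT18, and 96.3 and 75.6 at CT22. ΔRRE libraries read 95.9 and 51.3, 79.9 and 49.1, 77.6 and 101, 64.3 and 114, 98.8 and 77.6, and 80.6 and 66.3 FPKM. CT10 had the highest and CT6 the lowest mean in both genotypes, with a ratio of 2.05 in WT and 1.39 in ΔRRE, and the WT libraries of CT10 lay above those of CT6 while the ΔRRE libraries of these times overlapped. With both genotypes pooled (n = 4), each time point in the order of the means overlapped with the next.

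The fitted amplitude of *Nr1i3* was 0.37 in WT (0.05 to 0.68; adjusted p = 0.231) and 0.23 in ΔRRE (-0.06 to 0.52; adjusted p = 0.503) by limma. The joint wave, 0.30 (0.09 to 0.51) with a peak at CT 14.8 (12.1 to 17.5), missed the threshold (adjusted p = 0.0734). It passed without the first WT library of CT2 (adjusted p = 0.0452), without the first ΔRRE library of CT2 (adjusted p = 0.0281) and without the first ΔRRE library of CT14 (adjusted p = 0.0331).

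*Ahr* showed no detectable daily wave at this replication. Its libraries ran from 5.02 to 10.0 FPKM in WT, with a median of 7.27, and from 6.26 to 9.70 FPKM in ΔRRE, with a median of 8.27. The highest WT mean was at CT14 (8.62 ± 0.992 FPKM, SD, n = 2) and the lowest at CT6 (5.88 ± 1.22), whereas in ΔRRE the highest was at CT2 (9.25 ± 0.316) and the lowest at CT18 (7.14 ± 1.25). The fitted amplitude was 0.17 in WT (-0.08 to 0.42; adjusted p = 0.569) and 0.08 in ΔRRE (-0.12 to 0.27; adjusted p = 0.829) by limma. The fitted peaks, at CT 13.7 in WT and CT 2.71 in ΔRRE, were poorly fixed, with a difference of -11.0 h (-23.1 to 1.11 h). The joint amplitude was 0.05 on the log2 scale (-0.11 to 0.21; adjusted p from limma = 0.868), and the median joint amplitude over all genes tested was 0.17.

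Between the genotypes, none of the 5 rhythms differed beyond the spread of the libraries. The difference in amplitude, ΔRRE minus WT on the log2 scale, was -0.14 for *Nr1i3* (95% interval -0.58 to 0.30), 0.11 for *Nr1i2* (-0.13 to 0.35), -0.09 for *Ahr* (-0.40 to 0.22), -0.06 for *Por* (-0.55 to 0.43) and 0.18 for *Alas1* (-0.61 to 0.96). The peak of *Por* was 0.30 h earlier in ΔRRE, a difference of -0.30 h with an interval from -2.31 to 1.71 h. That of *Alas1* was 0.74 h later (-1.17 to 2.64 h).

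The limma test of a different wave called 0 members at an adjusted p under 0.05, where 0.00889% of all genes, 1 gene, were called, and 0 members at an unadjusted p under 0.05, where 2.84% of genes were. The adjusted p was 0.99993 for each member, and the exact permutation test over all 23328 divisions of the libraries within time points (two-sided) gave p = 0.810 for *Nr1i3*, 0.584 for *Nr1i2*, 0.270 for *Ahr*, 0.919 for *Por* and 0.703 for *Alas1*. The intervals run from -0.55 to 0.43 log2 units in *Por* and from -0.61 to 0.96 in *Alas1*, so the test does not show that the rhythms are alike.

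The mean level over the day did not pass either. *Nr1i2* averaged 24.8 FPKM in WT and 27.9 FPKM in ΔRRE, a log2 difference of 0.15 (-0.01 to 0.32). *Alas1* averaged 172 and 147 FPKM, a log2 difference of -0.44 (-0.97 to 0.08). *Nr1i3* differed by -0.09 (-0.39 to 0.20), *Ahr* by 0.13 (-0.08 to 0.34) and *Por* by 0.06 (-0.23 to 0.36), beside a median of 0.04 over all genes tested.

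By limma 0 members differed in level at an adjusted p under 0.05, as did 0 of all genes (0.0%), and 0 members at an unadjusted p under 0.05, where 8.91% of genes did. The adjusted p was 0.585 for *Nr1i2*, 0.644 for *Alas1*, 0.756 for *Ahr*, 0.913 for *Nr1i3* and 0.941 for *Por*. The exact permutation test gave p = 0.0723 for *Nr1i2* and 0.129 for *Alas1*, and between 0.222 and 0.681 for the other 3 genes.

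**Figure D3:**
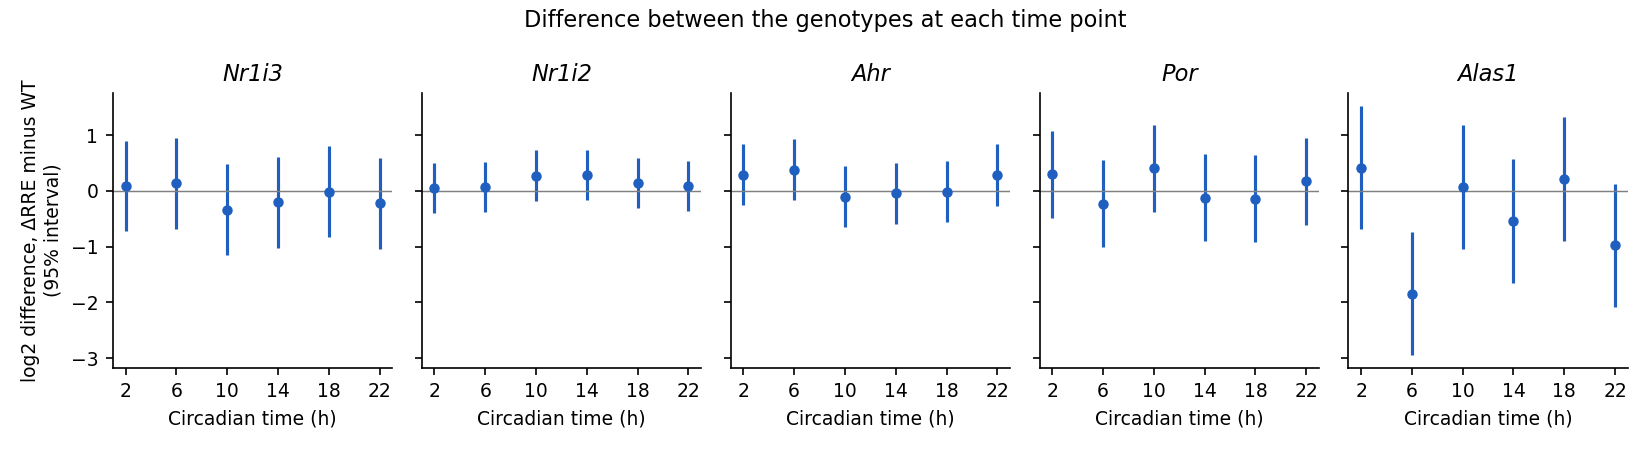
Difference in log2(FPKM + 0.1), ΔRRE minus WT, at each circadian time (h) for the 5 genes, with 95% intervals from the fit of 12 groups of 2 libraries. The interval of *Alas1* at CT6, -2.95 to -0.74, is the single one of the 30 that leaves out 0.

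Time point by time point, *Alas1* at CT6 had the smallest unadjusted p of the members, and it did not pass after adjustment. Its WT libraries there read 98.2 and 127 FPKM and its ΔRRE libraries 26.8 and 35.9 FPKM, so that the mutant level was 0.279 times that of WT, a log2 difference of -1.84 (SE 0.52, 95% interval -2.95 to -0.74). At CT22 the difference was -0.98 (-2.08 to 0.13) and at CT14 -0.54 (-1.65 to 0.57), while at CT2, CT10 and CT18 it was 0.42, 0.07 and 0.21. In WT the rise of *Alas1* was under way at CT6, with both libraries above both of CT2, and in ΔRRE the level at CT6 overlapped that at CT2.

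The limma contrast of *Alas1* at CT6 had an unadjusted p of 0.00277 and an adjusted p of 1, with 3.28% of all genes under an unadjusted 0.05 at CT6 and 0.0% after adjustment. Of the 30 contrasts of members at single time points, 0 passed after adjustment and 1 before it, where 0.0104% and 4.15% of the contrasts of all genes did. A count of 1 in 30 is near the 4.15% of all genes, so this contrast is no result about these genes. A test of whether the difference between genotypes varied with the time point as a factor gave an unadjusted p of 0.0586 for *Alas1* and an adjusted p of 0.9999 by limma.

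The libraries of the genotypes did not overlap in 8 of the 30 cases of a member at a time point, or 26.7%, against 31.2% over all genes and time points. ΔRRE was the higher in 6 of them, *Nr1i2* at CT10 and CT14, *Ahr* at CT2 and CT22, and *Por* at CT10 and CT22. It was the lower in 2, *Alas1* at CT6 and CT14. *Nr1i3* overlapped at each of the 6 time points. At this share, which is below that over all genes, the separate cases are no result about these genes.

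The D-box factors gave the background against which *Por* and *Alas1* are read. *Dbp* went from a mean of 0.548 FPKM at CT2 to 104 FPKM at CT10 in WT and from 0.523 to 82.7 FPKM in ΔRRE. *Tef* went from 6.49 to 69.9 FPKM and from 8.02 to 61.9 FPKM between the same times. *Nfil3*, the repressor, ran opposite, with 27.7 FPKM at CT2 and 3.06 FPKM at CT10 in WT.

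In the joint fit *Dbp* peaked at CT 10.9 with an amplitude of 3.39 on the log2 scale, *Tef* at CT 12.6 with 1.41, and *Nfil3* at CT 22.8 with 1.29. All 3 were called in each genotype and jointly, whereas *Hlf* (joint amplitude 0.22, adjusted p from limma = 0.172) was not. The peak of *Por* followed that of *Dbp* by 1.51 h and that of *Alas1* followed it by 2.86 h. Against *Tef*, *Por* peaked 0.22 h earlier, a lag of -0.22 h, and *Alas1* 1.13 h later. These lags between fitted peaks have no intervals and are shorter than the step between time points.

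**Figure D4:**
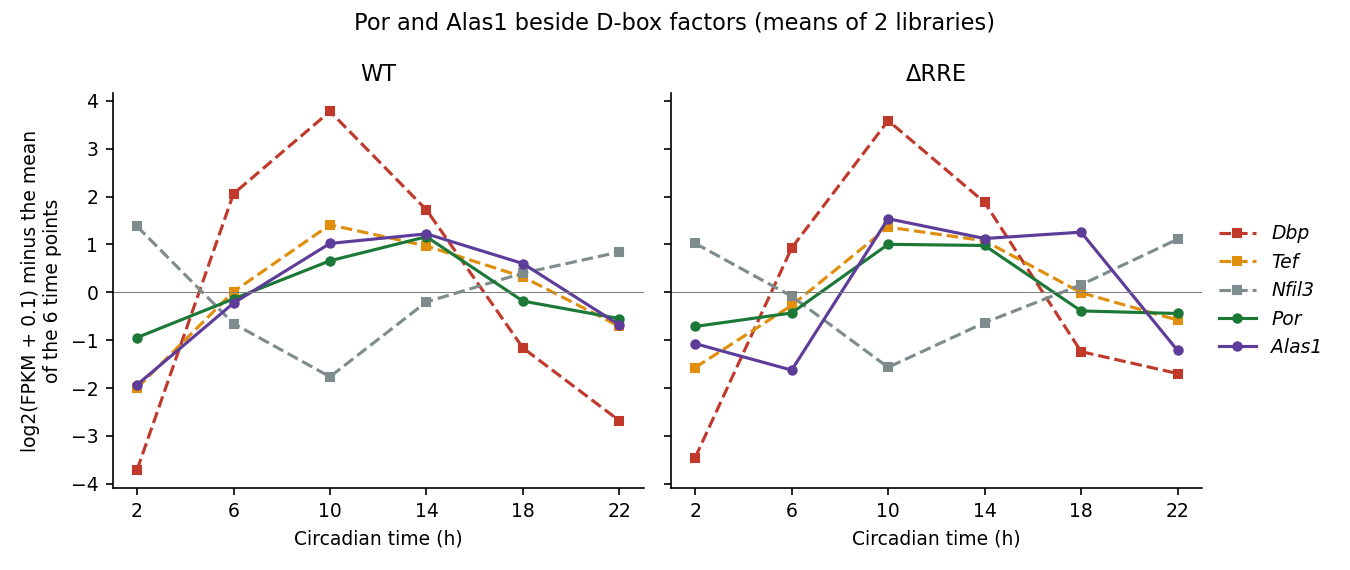
Means of 2 libraries of log2(FPKM + 0.1), less the mean of the 6 time points, against circadian time (h) in WT (left) and ΔRRE (right), for *Por* and *Alas1* (circles, solid lines) and for *Dbp*, *Tef* and *Nfil3* (squares, dashed lines). The joint peaks of *Por* and *Alas1*, at CT 12.4 and 13.7, fall after that of *Dbp* at 10.9, and *Nfil3* peaks at 22.8.

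Over the 12 means of genotype and time point, which share the same libraries, Pearson's r of *Por* was 0.84 with *Dbp*, 0.90 with *Tef* and -0.77 with *Nfil3*. For *Alas1* it was 0.65, 0.86 and -0.72, and between *Por* and *Alas1* 0.79. For *Nr1i2* the r with *Tef* was 0.61, for *Nr1i3* 0.66, and for *Ahr* 0.07. Between the genotypes the D-box factors had differences in amplitude of -0.51 for *Dbp* (-1.63 to 0.62), -0.15 for *Tef* (-0.63 to 0.34) and -0.04 for *Nfil3* (-0.60 to 0.52), none of which passed limma's test. At CT6, where *Alas1* stood lower in ΔRRE, the log2 difference was -1.34 for *Dbp* (unadjusted p = 0.0168), -0.42 for *Tef* (0.0882), 0.91 for *Nfil3* (0.0201) and 0.68 for *Hlf* (0.0213), each with an adjusted p of 1 by limma. CT6 is named here because *Alas1* had its smallest unadjusted p there. At CT22, where *Alas1* differed by -0.98, the log2 differences were 0.78 for *Dbp*, 0.003 for *Tef*, 0.60 for *Nfil3* and -0.37 for *Hlf*. At CT14, where *Alas1* differed by -0.54, they were -0.05, -0.02, -0.10 and -0.39 in the same order. The level of *Nfil3* over the day was 1.26 times that of WT (1.02 to 1.57, adjusted p = 0.527). The part of these factors in the level of *Alas1* was not tested.

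The genes whose pattern over these 12 means was most like that of a member were named by the highest r among all genes tested. For *Por* they were *Bnip3* (r = 0.98), *Tmem50a* (0.96) and *Lpin1* (0.96). For *Alas1* they were *Pfkfb3* (0.96), *Usp2* (0.94) and *Cyp2a5* (0.94).
The values were lower for the receptors. *Nr1i3* was followed most closely by *Lrrc28* (0.92), *Brpf1* (0.92) and *Nmrk1* (0.90), *Nr1i2* by *Sik1* (0.92), *Tmc7* (0.92) and *Sertad1* (0.91), and *Ahr* by *Acad11* (0.88), *Chtf8* (0.88) and *Parg* (0.88). The median r over all genes lay between -0.05 and 0.08 for the 5 members.

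Around the members stand the genes they work with. Of 16 partners and co-regulators of the receptors, 8 had a joint rhythm, where 30.6% of all genes did. In WT and in ΔRRE alone 0 were called (6 and 4 at an unadjusted p under 0.05 in limma), against 10.3% and 4.57% of all genes. *Hsp90aa1*, the chaperone that holds AHR and CAR in the cytoplasm, had a joint amplitude of 0.93 and a peak at CT 19.2, and *Hsp90ab1*, its constitutive form, one of 0.36 at CT 18.5. *Nr0b2* (SHP), a corepressor of nuclear receptors, had 0.67 at CT 4.23. *Rxra*, the dimer partner of CAR and PXR, was also called, at 0.23 on the log2 scale and CT 9.25. The median amplitude of the list was 0.19, against 0.17 over all genes.

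Of 25 target genes of CAR and PXR, 20 were tested and 5 had a joint rhythm, a share of 25.0% against 30.6% of all genes. *Cyp2a5*, the coumarin hydroxylase, had by far the largest amplitude of the 5, 1.18 with a peak at CT 13.3, and passed in each genotype (adjusted p from limma = 0.00594 in WT and 0.000496 in ΔRRE). Its fitted peak lay between those of *Por* and *Alas1*, and the order of these peaks was not tested. *Gstm2*, a glutathione transferase, had 0.41 at CT 5.76, *Cyp3a25* 0.38 at CT 6.07, and *Cyp2c29* 0.34 at CT 2.02. The fitted peaks of the targets named thus ran from CT 2.02 to CT 13.3, and the differences between them were not tested. *Cyp3a11*, the most abundant PXR target here at 1479 FPKM, had an amplitude of 0.12 (adjusted p = 0.600). These P450 and transferase genes have close copies whose reads the counting could have split, which makes their levels uncertain.

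*Cyp2a5* was also the gene of the lists with the smallest p for a difference in level. Its WT libraries ran from 102 to 1029 FPKM with a median of 491, and its ΔRRE libraries from 106 to 524 FPKM with a median of 282. At CT10 the values were 959 and 652 FPKM in WT and 524 and 375 FPKM in ΔRRE, and at CT14 1029 and 595 against 404 and 480 FPKM. The ΔRRE libraries lay below those of WT without overlap at CT10, CT14, CT18 and CT22, and overlapped with them at CT2 and CT6. Over all genes and time points 31.2% of cases did not overlap. Since *Cyp2a5* was picked for its p-value, its separate time points add no support to a difference. The log2 difference was -0.68 (-1.02 to -0.34), with an unadjusted p of 0.000436 and an adjusted p of 0.332 by limma, which does not pass. *Alas1*, whose pattern was close to it, had -0.44 (-0.97 to 0.08).

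Of 9 target genes of AHR, 5 were tested and 0 had a rhythm in any of the fits by limma (1 in ΔRRE and 1 in the joint fit at an unadjusted p under 0.05). Over all genes 10.3% were called in WT, 4.57% in ΔRRE and 30.6% jointly. *Cyp1a2*, the constitutive AHR target of the liver, had a joint amplitude of 0.06 (adjusted p = 0.829) and a mean of 321 ± 42.4 FPKM in WT and 269 ± 58.9 in ΔRRE (SD, n = 12), a log2 difference of -0.28 (adjusted p from limma = 0.501). The other AHR targets tested had joint amplitudes between 0.17 and 0.36, as for *Nqo1* at 0.36 (adjusted p = 0.107).

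Of 13 other genes of haem synthesis and breakdown, 2 had a joint rhythm, *Blvra* (biliverdin reductase, amplitude 0.19, peak at CT 9.52) and *Fech* (ferrochelatase, the last step of synthesis, 0.14, CT 10.5). Their share, 15.4%, was below that of all genes. In WT and in ΔRRE 0 were called (2 and 0 at an unadjusted p under 0.05 by limma), against 10.3% and 4.57% of all genes. The list had a median amplitude of 0.09, beside 1.58 for *Alas1*. *Alas2*, the isoform of red cell precursors, had 0.07 on the log2 scale (adjusted p = 0.782) at a mean of 47.6 FPKM.

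Of 6 other electron donors of P450 enzymes, 2 had a joint rhythm, or 33.3% against 30.6% of all genes. *Fdx1*, the ferredoxin of the mitochondrial P450s, had an amplitude of 0.29 and peaked at CT 12.3, beside *Por* at CT 12.4, although its amplitude was far smaller than the 0.94 of *Por*. *Cyb5b*, the cytochrome b5 of the outer mitochondrial membrane, had 0.50 and peaked at CT 0.28. Both passed in WT (adjusted p from limma = 0.0372 and 0.0315), where 10.3% of all genes did. In ΔRRE 0 of the 6 passed (3 at an unadjusted p under 0.05), against 4.57% of all genes. By limma 0 of the 6 differed in rhythm between the genotypes, before adjustment as well.

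**Figure D5:**
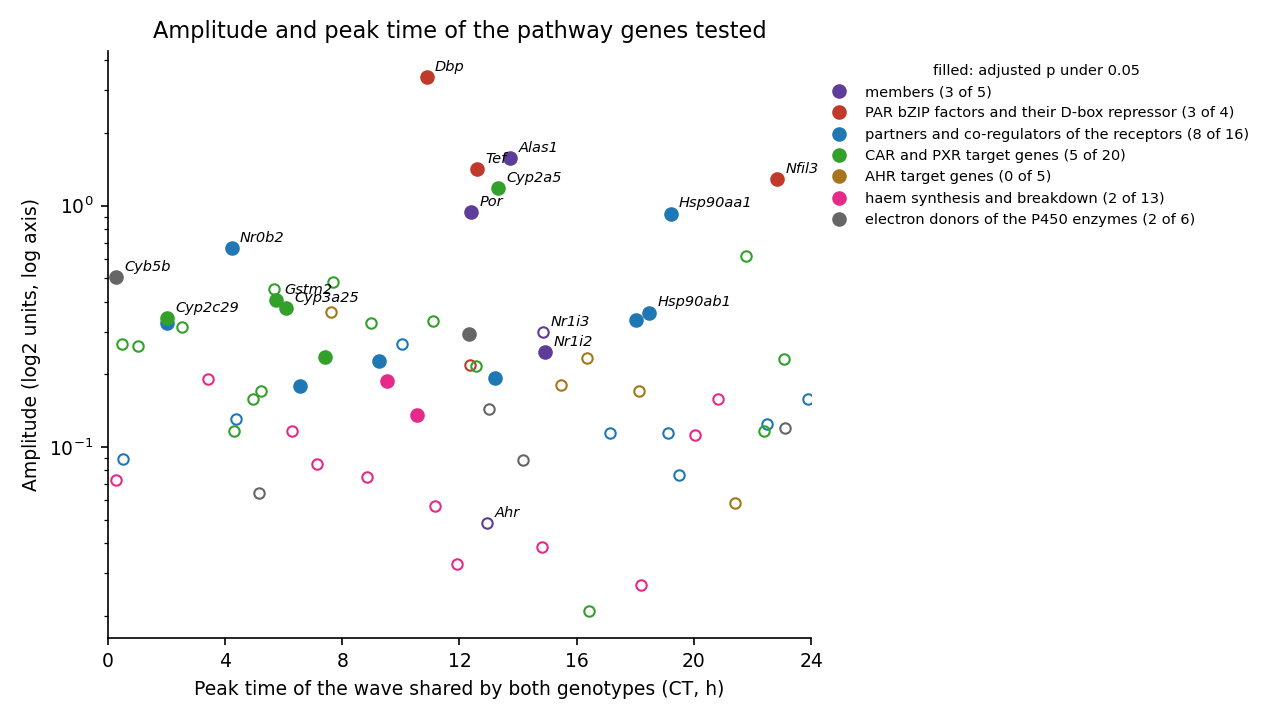
Amplitude (log2 units, log axis) against peak time in CT hours of the wave shared by both genotypes, for the 5 genes and the 64 tested genes of the 6 lists, coloured by list, with filled points for an adjusted p under 0.05. *Alas1*, *Por*, *Tef* and *Cyp2a5* lie together between CT 12.4 and 13.7 with amplitudes from 0.94 to 1.58, *Ahr* lies near the bottom at 0.05, and *Nfil3* lies on the far side of the day at CT 22.8.

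Over the 6 lists, 20 of 64 tested genes had a joint rhythm, or 31.2%, close to the 30.6% of all genes. By limma 0 of the 64 differed between genotypes in rhythm or in level after adjustment. Before adjustment 0 differed in rhythm and 10 in level, or 15.6% against 8.91% of all genes. Those 10 included 6 of the 20 CAR and PXR targets tested (*Cyp2a5*, *Cyp2c29*, *Cyp2c55*, *Gstm1*, *Gstm2* and *Abcc3*). The 5 other than *Cyp2a5* had positive log2 differences from 0.17 for *Abcc3* to 0.57 for *Cyp2c55*. Among all 20 targets the difference was positive in 12 and negative in 8, and the median over all genes tested was 0.04. A shift in level of these targets as a group was not tested.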

How the data were processed

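Poly(A) RNA of the livers was made into directional libraries and sequenced in pairs of reads. The authors deposited 1 table of FPKM per library, unpooled. The submitters' processing notes list Trimmomatic 0.39, HISAT2 2.1.0, StringTie 1.3.5 and the mm10 build, and the gene annotation release is not given in the sources used here. Counts were not used here, so the depth behind single values is unknown. A combined table with the same values was not used.

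The deposited FPKM were transformed to log2(FPKM + 0.1), and genes with a mean under 1 FPKM over all libraries were left out, so that 11244 were tested. Fold changes on this scale understate those of low genes. Models were fitted with limma 3.58.1 (R 4.3.3, prior with an intensity trend) over all genes, with Benjamini-Hochberg adjustment and a threshold of 0.05. They were a wave of 24 h in each genotype, 1 wave for both with a genotype term (joint), separate waves in 1 model, genotype with time point as a factor, and contrasts at each time point. Joint p-values assume 1 shared wave. BIO_CYCLE, the authors' rhythm detection tool, was not run. Exact permutation tests were added for the members. Positions are from GENCODE M21 (GRCm38), in which all 5 identifiers were found. The scripts were tested on simulated data, and Python 3.11.15 and matplotlib 3.10.9 were used for figures.

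Members, gene lists and tests were chosen with earlier results of these data known. The lists hold D-box factors, receptor partners, CAR and PXR targets, AHR targets, haem genes, electron donors and cell type markers. Named are the members, from each list at most the 4 genes with the largest amplitude among those with a joint rhythm, and the 3 genes most like each member. Of the genes this rule names, 1 is not reported here. *Rxra*, *Hlf*, *Alas2*, *Cyp1a2*, *Cyp3a11*, *Nqo1*, *Cyp2c55*, *Gstm1*, *Abcc3* and *Cyp2a5* (for its level) were named after their values were seen. Marker sums for Kupffer, endothelial, stellate and bile duct cells overlapped between the genotypes, with highest values of 94.9, 40.4, 86.9 and 42.1 FPKM in WT and 64.3, 36.6, 79.9 and 44.1 FPKM in ΔRRE. Alternatives were other pseudocounts, filters and scalings, a prior without trend, the replicate number as a block, a shared spread, time point as a factor, and leaving out each library or time point.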

Additional observations from a re-analysis of the deposited data

How the results depend on the processing

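With 2 libraries a group, small differences between the genotypes could not be detected, and the FPKM hold no depth. Of the 5 members, 0 differed in rhythm, in level or at single time points under each alternative run. The count of members rhythmic in WT fell from 2 to 1 without CT14. In ΔRRE it fell from 2 to 0 with no filter on low values (adjusted p = 0.107 for *Por* and 0.0955 for *Alas1*), where many more genes are tested, and to 1 without CT2, CT10 or CT14. Leaving out single libraries kept both counts at 2 and the joint count between 3 and 4. Differences that did not pass changed sign as follows, and the cause was not tested. The amplitude difference of *Por* ran from -0.189 to 0.0375 over the fits without 1 library, and was 0.0305 without CT2, 0.00462 without CT14 and 0.00692 without CT22. That of *Alas1* was -0.0985 without CT6 and -0.0589 without CT22, that of *Ahr* was 0.0372 without CT14, and the level difference of *Por* was -0.0054 without CT10. The difference of *Alas1* at CT6 ran from -2.05 to -1.63 with an adjusted p of at least 0.83.

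The deviations of same-numbered WT and ΔRRE libraries had an r over 0.1 at 2 of 6 time points. Over the 66 pairs of groups, the r of the first libraries' deviations was over 0.1 in 20, with a median of 0.067. The first library was the higher in 5 of 6 WT and 6 of 6 ΔRRE groups for *Nr1i2*. For *Nr1i3* these counts were 6 and 4, for *Por* 4 and 5, for *Ahr* 4 and 3, and for *Alas1* 1 and 3. What the number stands for is not given in the labels. With the replicate number as a block, 2 members were rhythmic in WT, 3 in ΔRRE (with *Nr1i2*, adjusted p = 0.0472) and 4 jointly (with *Nr1i3*, adjusted p = 0.0421), and 0 differed in rhythm or level. The calls over all genes were then 1189 in WT and 556 in ΔRRE.

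Calls of a rhythm over all genes numbered 1157 in WT and 514 in ΔRRE. These counts were 519 and 197 with no filter, 361 and 353 with time point as a factor, and 1350 and 957 with a shared spread. Without the first WT library of CT2 the count in WT was 770, and without the second of CT10 it was 740. Without 1 ΔRRE library of CT14 or CT18 the count in ΔRRE ran from 298 to 330. Without 1 time point it ran from 524 to 731 in WT, and in ΔRRE it was 257, 142 and 239 without CT10, CT14 and CT18.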
